A study of Mus musculus with 2 samples.

Results

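EC2 is a cluster of ectocranial fibroblasts of the mouse coronal suture, the joint between the frontal and parietal bones, and is marked by Ly6a, Dpt and Pi16. Its members are the cells to which the authors gave the label EC2 in their table of osteogenic and mesenchymal cells, and no expression value was used to choose them here. There were 925 EC2 cells among 5335 labelled cells at E15.5 and 608 among 6830 at E17.5, that is 1533 of 12165 labelled cells in all. The study captured single cells from coronal sutures of wildtype C57/BL6 embryos at 2 embryonic stages, E15.5 (10 pooled sutures) and E17.5 (16 sutures from 2 litters, dissociated in 3 batches and deposited as 1 matrix). Skin, brain and some of the meninges were peeled off first, so EC2 comes from what stayed attached to the skull. The E15.5 cells were released with collagenase II and dispase and cleared of dead cells, whereas the E17.5 cells were released with collagenase IV and sorted, so stage, enzyme and sorting cannot be told apart. The deposited values are counts of unique molecular identifiers (UMIs, 1 for each captured RNA molecule), and levels are given as CPM, the UMIs of a gene scaled to a fixed total of UMIs over the cells of a cluster.

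Fibroblasts that express Pi16 and Dpt are found in the loose connective tissue around vessels and beneath the skin of many organs. They are often called adventitial or universal fibroblasts, carry the surface proteins Ly6a (Sca-1), Cd34 and Dpp4, and make microfibrils, proteoglycans and enzymes that process collagen. Over the growing skull, loose connective tissue separates the dermis from the periosteum and the bone.

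EC2 cells were deeply covered in both libraries. They held 9209624 UMIs at E15.5 and 7949081 at E17.5, with a median of 9732 and 12602 UMIs and of 2909 and 3436 genes per cell. At E15.5 the authors' own table lists a median of 13247 UMIs for the same cells, so it was made from another count than the deposited matrix, while at E17.5 both give 12602. In cells thinned to 3000 UMIs the median was 1355 and 1383.5 genes, and the median mitochondrial share was 1.48% and 1.95%. At E15.5, 9 EC2 cells lay outside the limits of the study on UMIs, genes and mitochondrial or haemoglobin content, and at E17.5 none of 608 did. The E17.5 barcodes carry 3 suffixes, which are separately prepared sub-libraries that the labels do not tie to a batch or litter. They are given one by one as a spread in which preparation and litter are mixed. No EC2 barcode sequence was shared between the libraries, whereas 42 labelled E17.5 cells of any cluster had a barcode sequence of a labelled E15.5 cell. With 1 library per stage no test was possible, and the 95% intervals (exact Poisson for levels, exact binomial for shares and ratios) cover counting error only.

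At E15.5 17.3% of the labelled cells (16.3 to 18.4) were EC2, and 8.90% (8.24 to 9.60) at E17.5. It was the second most frequent of 15 clusters at E15.5, after EC3 with 22.2%, and the fourth at E17.5. The ratio of the shares was 0.513 (0.463 to 0.569). Among the E17.5 suffixes the share was 14% (173 of 1234 cells), 7.73% (214 of 2770) and 7.82% (221 of 2826), so the first suffix stood apart from the other 2 by more than counting error. EC1 and EC3, the clusters most like EC2, took 6.19% and 22.2% of the labelled cells at E15.5, but 4.32% and 2.84% at E17.5. The cells against which EC2 is compared therefore held far fewer EC1 and EC3 cells at E17.5. Folds of the 3 markers against all other labelled cells were larger at E17.5. They were larger there without EC1 and EC3 in the reference too (Ly6a 14.8 and 68.4, Dpt 6.17 and 40.3, Pi16 18.7 and 52.7). The part of the cluster shares in the larger folds was not tested.

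All 3 markers of the cluster were highest in EC2 in both libraries. Ly6a (chromosome 15, 74994877 to 74998031, minus strand of GRCm38) encodes the glycolipid-anchored surface protein Sca-1, and its E15.5 level in EC2 was 1053 CPM (1032 to 1074), against 1707 CPM (1679 to 1736) at E17.5. The 3 suffixes gave 1849, 1627 and 1670 CPM, all above the E15.5 level. In all other labelled cells combined Ly6a reached 199 and 62.4 CPM, which is 5.28-fold (5.13 to 5.44) and 27.4-fold (26.5 to 28.2) below EC2. The last 500 bases of its transcripts are not all its own: 8.13% of their 50-base words also occur in Ly6c1, Ly6c2, Ly6i or I830127L07Rik. How far this changes its UMI count was not tested.

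Pi16 (chromosome 17, 29317680 to 29330593, plus strand) encodes a secreted peptidase inhibitor family protein. In EC2 it gave 951 CPM (931 to 971) in the E15.5 library and 1563 CPM (1535 to 1590) in the E17.5 library, with 1972, 1376 and 1415 CPM in the suffixes. The other labelled cells had 143 and 60.7 CPM of Pi16, and the folds were 6.64 (6.42 to 6.87) and 25.8 (24.9 to 26.6). Dpt (chromosome 1, 164796644 to 164824266, plus strand) encodes dermatopontin, a matrix protein that binds decorin and promotes collagen fibril formation. Its E15.5 level was 550 CPM (535 to 565) and its E17.5 level 825 CPM (805 to 845), with 774, 854 and 839 CPM in the suffixes. At E15.5 Dpt set EC2 apart less than the other markers did, since EC3 had 519 CPM and EC1 428 CPM, and its fold over the other labelled cells was 2.36, against 24.4 at E17.5.

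**Figure D1:**
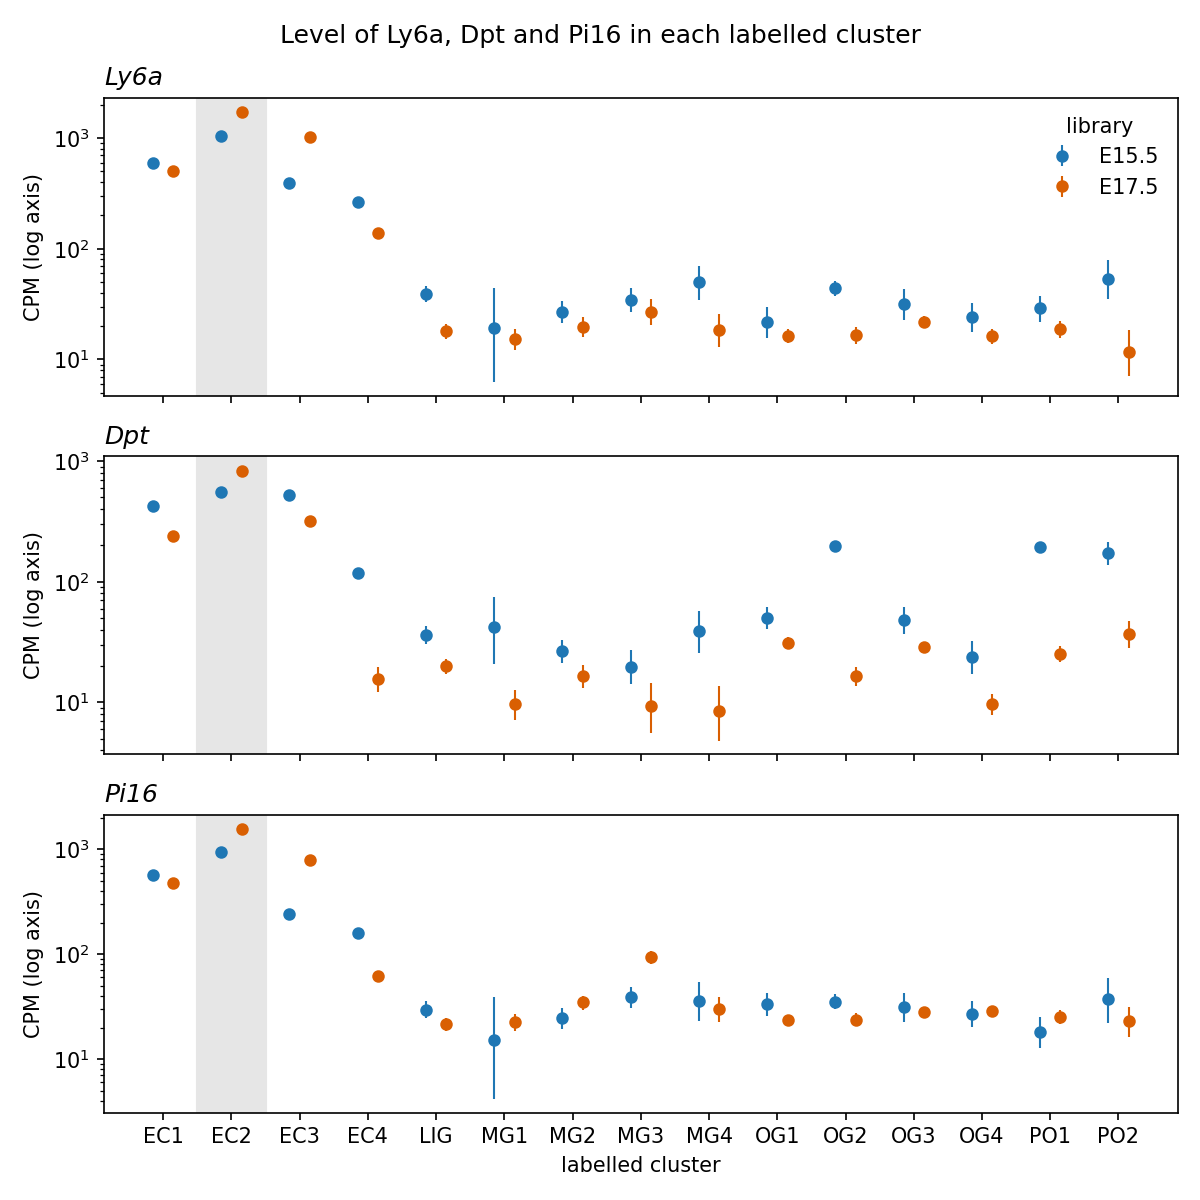
Level of Ly6a, Dpt and Pi16 (CPM, log axis) in each of the 15 labelled clusters at E15.5 (blue) and E17.5 (orange), with exact 95% Poisson intervals as bars and EC2 shaded. EC2 is the highest cluster for each gene in each library, EC1 and EC3 come next for Ly6a and Pi16, and for Dpt at E15.5 EC2 (550 CPM) and EC3 (519 CPM) nearly coincide.

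The neighbours in this order were the ectocranial clusters. For Ly6a, EC1 had 598 and 509 CPM and EC3 391 and 1014 CPM, so EC1 came second at E15.5 and EC3 at E17.5. For Pi16 the order was the same, with 563 and 482 CPM in EC1 and 243 and 783 CPM in EC3. The differentiated osteogenic cluster OG4, which should lack these genes, served as a background, and it had between 9.72 and 28.8 CPM of each marker. Without EC1 and EC3 in the reference the folds were 14.8 and 68.4 for Ly6a, 6.17 and 40.3 for Dpt and 18.7 and 52.7 for Pi16. The first E17.5 suffix, in which EC2 was most frequent, gave the smallest folds over its other labelled cells: 12.6, 34.1 and 36.5 for Ly6a in the 3 suffixes, 14.3, 28.1 and 28.1 for Dpt, and 12.9, 31.7 and 32.6 for Pi16.

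Most single EC2 cells carried RNA of every marker. To compare cells of unequal depth each was thinned to 3000 UMIs, which left out 19 shallower EC2 cells at E15.5 and none at E17.5. Of 906 EC2 cells at E15.5, 87.3% had a UMI of Ly6a, 71.1% of Dpt and 88.6% of Pi16. Of 608 at E17.5, the shares were 97.7%, 88.0% and 97.0%. In OG4 the same shares were 3.41%, 3.98% and 2.27% at E15.5, against 4.55%, 3.04% and 9.68% later.

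UMIs of all 3 markers were found in 55.4% of EC2 cells at E15.5 (502 of 906, 52.1 to 58.7) and 83.4% at E17.5 (507 of 608, 80.2 to 86.3). The suffixes gave 83.2%, 79.4% and 87.3%. Both shares lay next to the products of the 3 single shares, 55.0% and 83.4%, so within EC2 the markers were found together about as often as their separate shares give. None of the markers was found in 3 EC2 cells at E15.5 (0.331%), and in 0 of 608 cells at E17.5 (exact upper limit 0.605%). Without thinning the shares with all 3 were 87.0% and 99.2%.

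The same count set EC2 apart from its neighbours. EC1 had all 3 markers in 30.8% and 21.0% of its cells, and EC3 in 14.1% and 33.5%. In EC4 the share was 2.16% at E15.5 and 0 of 370 cells at E17.5. EC1 was not uniform at E17.5, where 56.3% of its cells had no marker while the 21.0% with all 3 exceeded the 2.93% that its separate shares give.

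**Figure D2:**
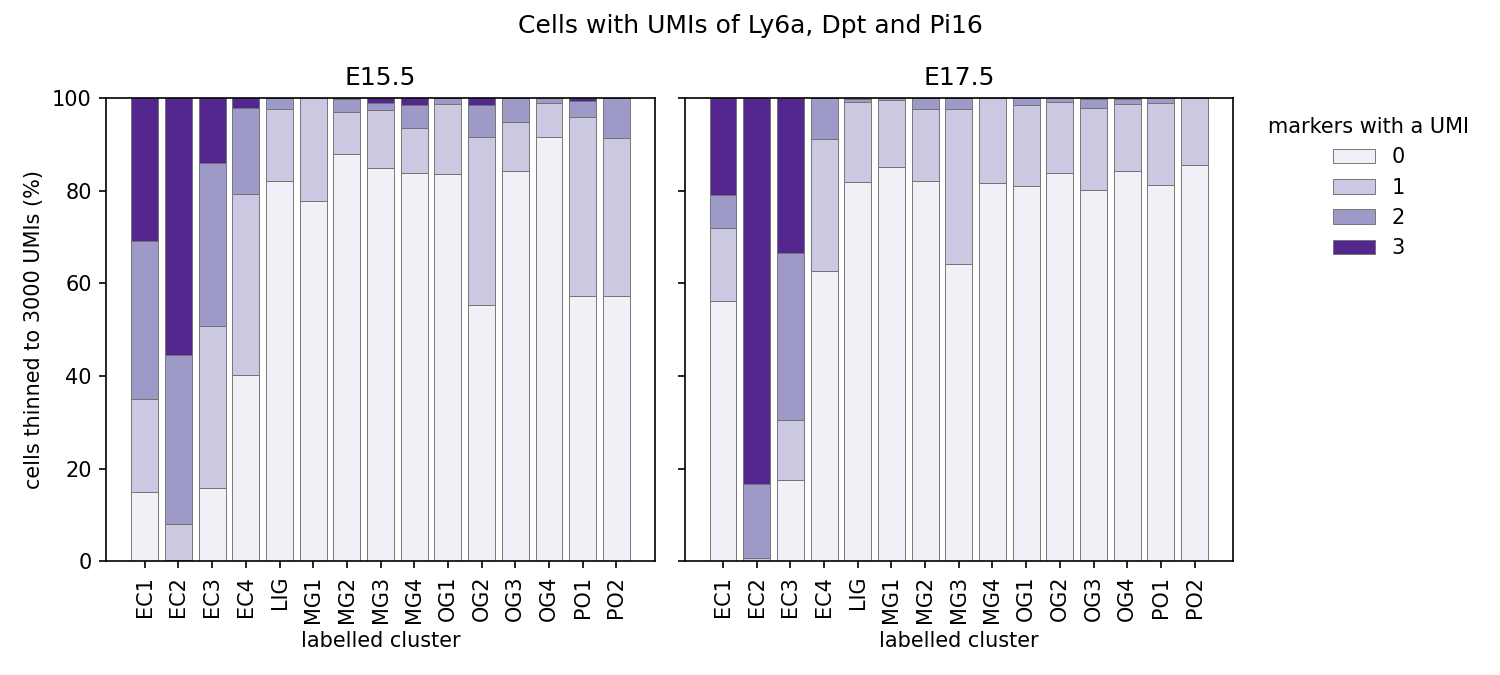
Percentage of cells of each labelled cluster, thinned to 3000 UMIs, that had a UMI of 0, 1, 2 or 3 of the markers Ly6a, Dpt and Pi16 (darker for more), at E15.5 (left) and E17.5 (right). All 3 were found in 55.4% and 83.4% of EC2 cells, and in at most 33.5% of the cells of any other cluster in either library.

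Over the 11147 genes with at least 100 UMIs in the labelled cells of each library, the profile of EC2 was most like those of EC3 and EC1. Across these genes, which share libraries and depth and are not independent, Spearman's rho was 0.982 with EC3 and 0.975 with EC1 at E15.5, whereas E17.5 gave 0.956 and 0.933. EC4 followed with 0.939 and 0.915, and OG4 was the least alike with 0.791 and 0.824. EC2 at E15.5 and EC2 at E17.5 gave 0.938, which is lower than EC2 against EC3 within either library.

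EC2 was at least 2-fold higher than the other labelled cells in both libraries for 244 genes (2.19% of those tested) and at least 2-fold lower for 527 (4.73%). The authors formed the clusters on these cells, so these counts describe EC2 and test nothing. Of the 244 genes, 168 were highest in EC2 among all 15 clusters in both libraries. At E15.5 the highest other cluster was EC1 for 113 of them and EC3 for 62, whereas at E17.5 it was EC3 for 151 and EC1 for 28. Over all genes tested the median log2 fold was -0.08 and -0.05.

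The 25 genes that led by the smaller of their 2 folds were Msr1, Iyd, Krtdap, Pi16, Reln, Sgcz, Ly6c1, Ly6a, Stmn4, Nfe2l3, Sorcs3, Lims2, Akr1c14, Tnfrsf11b, Ccl11, Cldn3, Nov, Mcf2l, Ncam2, Aldh1a3, Igfbp6, Gabra2, Lamb3, Pamr1 and Emilin2. Msr1, a scavenger receptor best known from macrophages, came first with 11.2 CPM in EC2 against 1.19 CPM in the other cells at E15.5 (9.38-fold). At E17.5 it had 97.9 CPM (143, 80.1 and 79.1 in the suffixes) against 3.14 CPM (31.1-fold). None of the 8 myeloid markers on the list was 2-fold higher in EC2 in both libraries. With 2.19% of all genes called higher, a list of 8 could hold none. Their summed level in EC2, 60.9 and 186 CPM, lay within the range of the other clusters. The source of the Msr1 RNA was not tested. Iyd, which removes iodide from iodotyrosines, had 59.7 and 60.9 CPM (8.23-fold and 37.3-fold).

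Several secreted proteins stood in this group. Krtdap, a small protein known from differentiating keratinocytes, had 291 and 538 CPM (6.66-fold and 42.5-fold). The 8 keratinocyte markers together reached 41.0 and 45.9 CPM in EC2. None of the 8 was at 0 at E15.5, whereas Krt5, Krt14, Krt15 and Dsp were at 0 at E17.5. Tnfrsf11b, which encodes osteoprotegerin, the decoy receptor that restrains osteoclast formation, had 89.3 CPM at E15.5 and 182 CPM at E17.5 (4.58-fold and 24.3-fold). Nov, also called Ccn3, a matricellular protein, had 686 and 1296 CPM (4.24-fold and 20.1-fold). Pamr1, a secreted protein with a protease-like domain, had 347 and 398 CPM (3.94-fold and 15-fold).

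Other leading genes encode an enzyme, a guidance protein and membrane proteins. Aldh1a3 makes retinoic acid from retinal, and its level was 99.1 CPM and 144 CPM (4.14-fold and 16-fold). Reln, a large secreted guidance protein, was low in level but 5.60-fold (4.07 to 7.74) and 35.9-fold (25.7 to 51.0) higher in EC2, with 10.1 and 19.5 CPM. Cldn3, a tight junction protein, had 9.23 CPM at E15.5 and 32.5 CPM at E17.5 (4.38-fold and 48.2-fold). Ly6c1, a relative of Ly6a, had 152 and 241 CPM (5.34-fold and 28.1-fold), but 29.2% of its end words are shared with Ly6a, Ly6c2 or Ly6i and its separate level is uncertain. The other 2 tested members of the 8 Ly6 genes listed were Ly6e, 1.66-fold and 4.45-fold, and Ly6h, which was lower in EC2 (0.467 and 0.271 times).

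**Figure D3:**
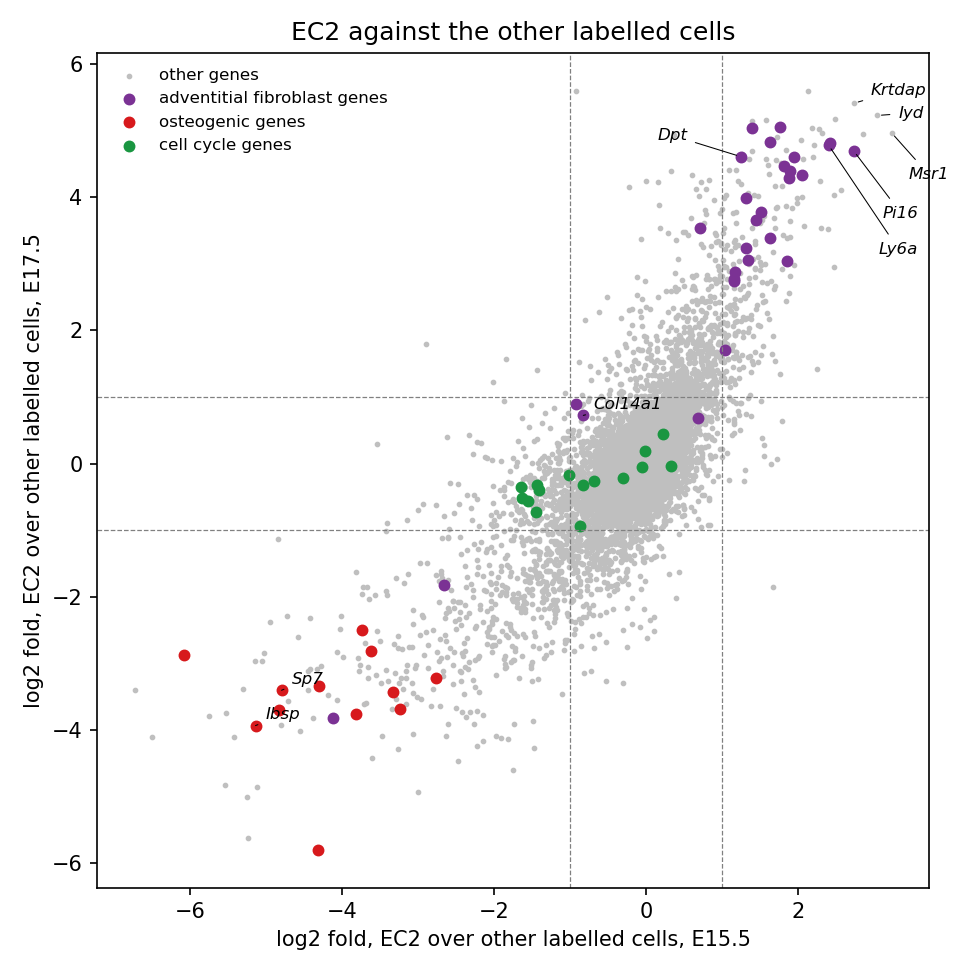
Each point is 1 of the genes tested, with the log2 fold of EC2 over the other labelled cells at E15.5 (horizontal) and at E17.5 (vertical), and dashed lines mark 2-fold in each direction. Adventitial fibroblast genes (purple) mostly lie at the upper right, osteogenic genes (red) all lie at the lower left, and cell cycle genes (green) lie near 0 or to the left.

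The genes that mark adventitial fibroblasts in other organs were high in EC2 as a group. Of 30 listed, 29 were tested, 23 were at least 2-fold higher in EC2 in both libraries and 2 were lower, against 2.19% and 4.73% of all genes. Their median log2 fold was 1.39 at E15.5 and 3.65 at E17.5, 21 of the 30 were highest in EC2 in both libraries, and their summed level was 12780 and 18272 CPM, above the 8875 CPM of EC1 and the 10638 CPM of EC3 that came next. The list includes the 3 markers by which EC2 is known. Clec3b, which encodes tetranectin, a plasminogen-binding protein, had 1400 CPM at E15.5 and 1748 CPM at E17.5 (3.1-fold and 28.5-fold). Dpp4, a dipeptidyl peptidase of the cell surface, had 240 and 221 CPM (2.63-fold and 32.9-fold), and Cd34, a sialomucin of progenitor cells, 529 and 799 CPM (2.24-fold and 6.71-fold).

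The other members above the limit were mostly secreted or membrane proteins. Cd55, which shields cells from complement, had 255 and 267 CPM (3.69-fold and 19.5-fold). Cd248, or endosialin, had 460 and 669 CPM (2.48-fold and 9.44-fold). Sema3c, a secreted guidance cue, had 836 CPM at E15.5 and 618 CPM at E17.5 (2.24-fold and 7.36-fold). The list also held exceptions. Smpd3, a sphingomyelinase active in bone, had 4.45 and 11.7 CPM (0.0578 and 0.0708 times the other cells), and the alarmin Il33 0.977 and 2.64 CPM (0.158 and 0.282 times). Col14a1 (0.564 and 1.65 times), Gsn (1.61 and 1.60), Opcml (1.64 and 11.6) and Pcolce2 (0.526 and 1.86) did not reach 2-fold in both libraries.

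Among matrix genes, a minority of the microfibril genes listed were higher in EC2. Of 21 elastic fibre and microfibril genes, 5 were higher and 1 was lower, beside 2.19% and 4.73% of all genes, with a median log2 fold of 0.07 and 0.51. Their summed level was 8508 CPM at E15.5, the fourth of 15 clusters, and 12872 CPM at E17.5, the highest. Mfap5, which binds fibrillin, had 2152 CPM at E15.5 and 3453 CPM at E17.5 (3.52-fold and 22.1-fold). Fbn1, the main fibrillin of microfibrils, had 1160 and 1681 CPM (2.73-fold and 12.6-fold). Efemp1, or fibulin-3, had 322 and 694 CPM (3.70-fold and 21.0-fold), Emilin2 288 and 548 CPM (3.85-fold and 24.4-fold), and Tnxb, the tenascin whose loss causes loose skin, 54.0 and 254 CPM (3.57-fold and 26.0-fold). Emilin1 was the lower one, at 0.45 and 0.398 times, and elastin itself (Eln) was 0.871 and 1.42 times the level of the other cells.

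Of 17 collagen genes only Col5a3 was higher (151 and 206 CPM, 2.52-fold and 16.7-fold) and only Col11a1 lower (0.331 and 0.164 times). Of all genes 2.19% were higher and 4.73% lower. The median log2 fold of the collagen genes was -0.63 and -0.33. The major fibrillar collagen Col1a1 had 3413 CPM at E15.5 and 9083 CPM at E17.5 in EC2, 0.476 and 0.826 times the other cells. Col3a1, abundant in loose connective tissue, was 1.57-fold and 4.12-fold higher and was highest in EC2 in both libraries.

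Small leucine-rich proteoglycans and hyaluronan genes were divided. Of 13 tested, Prelp, Has1, Has2 and Cd44 were higher and Bgn, Fmod and Omd lower, beside 2.19% and 4.73% of all genes. Has1 and Has2 make hyaluronan and Cd44 is its receptor: Has1 had 48.3 and 13.3 CPM (3.63-fold and 8.18-fold), Has2 22.7 and 5.91 CPM (2.19-fold and 3.27-fold) and Cd44 317 and 356 CPM (3.14-fold and 3.12-fold). Bgn, or biglycan, was lowest of all clusters in EC2 in both libraries (262 and 382 CPM, 0.373 and 0.288 times). Dcn, or decorin, was 1.72-fold and 4.79-fold higher, with 7740 CPM and 6720 CPM, and thus passed the limit at E17.5 only.

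Of 17 matrix proteases and inhibitors, Mmp23 (2.58-fold and 2.05-fold) and Htra3 (2.24-fold and 5.16-fold) were higher, and Htra1 (0.232 and 0.397 times) and Serpine2 (0.203 and 0.286 times) lower. Among all genes 2.19% were higher and 4.73% lower.

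Among secreted signals, EC2 was high in some Wnt ligands and low in several Wnt inhibitors. Of 17 Wnt ligands and modulators, Wnt2, Wnt10b, Wnt16 and Dkk2 were at least 2-fold higher and Frzb, Dkk1, Wif1 and Rspo1 at least 2-fold lower. The shares over all genes were 2.19% and 4.73%. Wnt2, which signals through beta-catenin, had 389 CPM at E15.5 and 516 CPM at E17.5 (2.48-fold and 15.9-fold). Wnt10b had 30.8 and 9.56 CPM (4.73-fold and 2.68-fold), and Wnt16 10.4 and 30.1 CPM (2.37-fold and 18.3-fold). Dkk2, which modulates the Wnt co-receptor, had 254 and 195 CPM (2.01-fold and 6.30-fold), and the fold at E15.5 lay at the limit. Wif1, which binds Wnt proteins, was lowest in EC2 among all clusters in both libraries, with 0.760 and 14.1 CPM against 80.3 and 149 CPM in the other cells.

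Of 17 TGF-beta and BMP ligands and antagonists, Bmp7 was higher (107 CPM in both libraries, 3.09-fold and 10.5-fold) and Tgfb1, Bmp5, Inhba, Nog and Tgfbi were lower. Beside this list, and the IGF and chemokine lists that follow, stand 2.19% higher and 4.73% lower among all genes. Tgfb1 had 2.50 and 12.1 CPM in EC2 against 18.5 and 69.7 CPM in the other cells and was the lowest of all clusters in both libraries. The follistatin-like glycoprotein Fstl1 was highest in EC2, with 2266 CPM and 2915 CPM, but only 1.58-fold above the other cells at E15.5. Of 10 IGF genes, Igfbp6, which prefers IGF2, was higher (511 and 954 CPM, 4.13-fold and 20-fold), and Igfbp2 (0.233 and 0.153 times) and Igfbp7 (0.298 and 0.257 times) were lower. Of 11 chemokine and cytokine genes, Ccl11, an eosinophil attractant, had 48.4 and 76.4 CPM (4.53-fold and 32.6-fold), and Ccl7, a monocyte attractant, 37.8 and 61.9 CPM (2.23-fold and 3.01-fold). Ackr3, a scavenging receptor for CXCL12, was higher too (2.04-fold and 3.27-fold), and Cxcl14 and Il33 were lower.

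Of 20 growth factor receptors and surface proteins, Cd34, Cd248 and Dpp4 were higher, and Pdgfrb, Fgfr2, Ncam1 and Cd200 were lower. Over all genes it was 2.19% and 4.73%. The neural cell adhesion molecule Ncam1 was lowest in EC2 in both libraries (6.84 and 15.7 CPM against 93.8 and 136 CPM). Fgfr2, which mediates FGF signals in bone-forming cells, was lowest there too (4.13 and 15.1 CPM against 23.3 and 84.4 CPM). Pdgfra, a general fibroblast receptor, was 0.700 and 1.25 times the level of the other cells.

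Of 37 transcription factors of mesenchyme, Osr1 and Creb5 were higher in EC2 and 7 were lower, beside 2.19% and 4.73% of all genes. Osr1, a zinc finger factor of loose connective tissue fibroblasts, had 246 CPM at E15.5 and 293 CPM at E17.5 (2.46-fold and 16.1-fold), and Creb5 295 and 215 CPM (2.81-fold and 8.17-fold). The lower ones, Foxc1, Foxc2, Foxd1, Six2, Alx4, Msx1 and Msx2, are known for patterning skull and meninges. Foxc1 was lowest of all clusters in EC2 in both libraries (1.85 and 2.77 CPM against 19.7 and 23.7 CPM), and Msx1 had 4.89 and 13.1 CPM against 26.4 and 115 CPM. Prrx1, a broad marker of skeletal mesenchyme, was 0.933 and 0.982 times the other cells.

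The paper places EC1 to EC3 in the hypodermis, where it saw Ly6a together with Pi16 and with Dpt in situ. No gene of the papillary dermis or of preadipocytes on the lists was 2-fold higher in EC2 in both libraries. With 2.19% of all genes called higher, lists of 10 and 15 tested genes could hold none, so this does not bear on that placement. Of 10 tested papillary dermis genes Lef1, Dkk1 and Wif1 were lower, beside 4.73% of all genes, and Twist2, a dermal factor, was 0.573 times at E15.5 and 4.44 times at E17.5. Of 15 hypodermal and preadipocyte genes Icam1 and F3 were lower. In summed level EC2 ranked 9th and 1st of 15 clusters for the papillary list (498 and 579 CPM) and 2nd and 1st for the hypodermal one (7587 and 7650 CPM). Dlk1, or Pref-1, which holds preadipocytes undifferentiated, reached 6117 CPM at E15.5 and 6286 CPM at E17.5, second to EC3 in both, and was 1.72-fold and 13.4-fold above the other cells. Genes of mature adipocytes were close to absent: the 6 markers summed to 0.434 and 0.377 CPM, with 4 and 5 of them at 0, Adipoq among them.

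EC2 had the lowest summed level of osteogenic genes among all 15 clusters in both libraries, at E15.5 by a narrow margin. All 14 tested were at least 2-fold lower in both libraries, beside 4.73% of all genes, with a median log2 fold of -4.24 and -3.40. The 16 listed summed to 97.1 CPM at E15.5 and 248 CPM at E17.5. The next lowest clusters were PO2 with 101 CPM at E15.5 and MG1 with 400 CPM at E17.5. At E15.5 EC2 and PO2, an osteogenic cluster of 35 cells, thus nearly coincided. Sp7, the osteoblast transcription factor, had 0.543 CPM (5 UMIs) in EC2 at E15.5 and 12 CPM at E17.5, against 15.1 and 126 CPM in the other cells. Runx2, which acts before it, had 4.99 and 9.81 CPM against 33.9 and 91.5 CPM. Ibsp, or bone sialoprotein, had 55.7 and 120 CPM against 1962 and 1824 CPM (0.0284 and 0.0655 times), yet against the median of the other 14 clusters it was 1.13 times at E15.5. Bglap, which encodes osteocalcin, had 3.69 and 0.252 CPM (34 and 2 UMIs) against 73.6 and 14 CPM, and was 1.01 times the median cluster at E15.5, so the low folds of both genes rest on the few clusters that are rich in them.

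The 10 genes lowest in EC2 by the larger of their 2 folds were Khdrbs2, Crym, Stmn2, Slc36a2, Bglap, Bglap2, Ism1, Scx, Ibsp and Mob3b. Scx, the transcription factor of tendon, had 3 UMIs in EC2 at E15.5 and 10 later, 0.0425 times (0.00872 to 0.125) and 0.0618 times (0.0296 to 0.114) the other cells. Of 9 tendon and ligament genes tested 5 were lower and none was higher, beside 4.73% and 2.19% of all genes. Tnmd, a tendon membrane protein, had 23.1 and 19.4 CPM against 125 and 185 CPM. Of 9 meningeal genes tested 6 were lower and none was higher, and the list summed to 145 and 116 CPM in EC2 against 1482 and 2683 CPM in the meningeal cluster MG4. Markers of endothelium (21.0 and 18.0 CPM in sum), of glia and neurons (12.1 and 7.93 CPM) and of skeletal muscle (21.8 and 10.9 CPM) were near 0 in EC2. Of 7 smooth muscle and pericyte genes Acta2 and Cspg4 were lower, while Kcnj8, a potassium channel subunit of pericytes, was higher (93.8 and 227 CPM, 2.39-fold and 10.6-fold).

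EC1 and EC3 were compared with EC2 one by one. EC2 was at least 2-fold higher than EC1 in both libraries for 38 genes (0.341%) and lower for 249 (2.23%), and was higher than EC3 for 51 (0.458%) and lower for 116 (1.04%). These counts rest on the need for both libraries, since E17.5 alone gave 869 higher and 767 lower genes against EC1 and 588 and 559 against EC3. Of the 29 adventitial genes tested, none reached 2-fold over EC1 in both libraries and only Efemp1 did so over EC3. Of the named genes, Msr1, Iyd, Ccdc68 and Ccl7 were 2-fold higher than in both neighbours. Msr1 was 3.13-fold and 2.88-fold above EC1 and 6.66-fold and 3.71-fold above EC3. Iyd was 2.02-fold and 4.53-fold above EC1 and 4.36-fold and 3.75-fold above EC3. Ccl7 was 2.11-fold and 2.12-fold above EC1 and 2.07-fold and 3.81-fold above EC3.

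**Figure D4:**
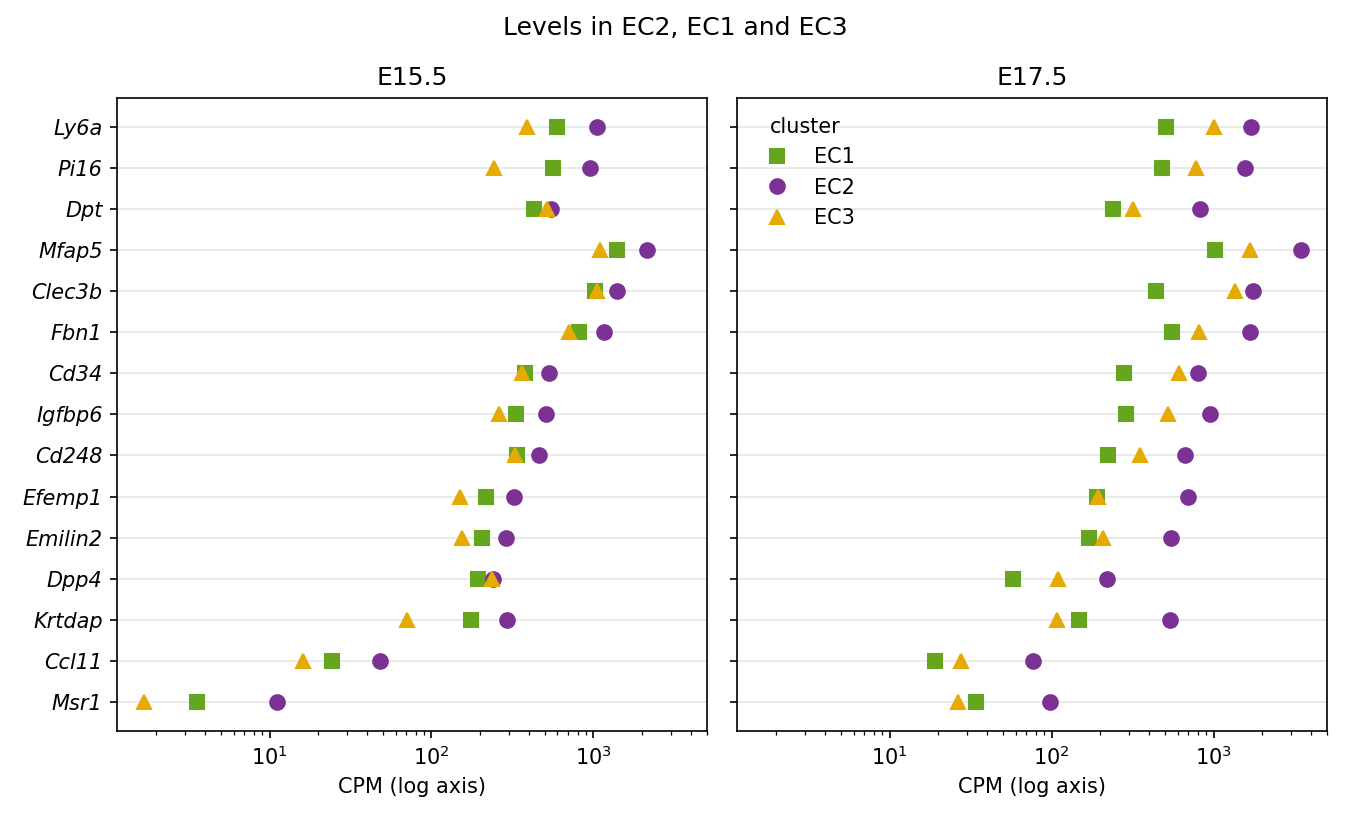
Level (CPM, log axis) of 15 genes in EC1 (green squares), EC2 (purple circles) and EC3 (yellow triangles) at E15.5 and E17.5. EC2 lies to the right for every gene shown, by steps that differ by gene. For Dpp4 the step over EC3 was small at E15.5 (240 against 236 CPM) and larger at E17.5 (221 against 110 CPM). For Ly6a, Pi16 and Msr1 the fold over EC3 was smaller at E17.5.

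Against EC1 at E15.5 the steps were small: Ly6a was 1.76-fold, Pi16 1.69-fold, Mfap5 1.53-fold and Clec3b 1.36-fold. At E17.5 they were 3.36-fold, 3.24-fold, 3.37-fold and 3.97-fold. Against EC3 the order of the libraries differed by gene, with Pi16 at 3.91-fold and, just under the limit, 2.00-fold, Ly6a at 2.69-fold and 1.68-fold, and Dpp4 at 1.02-fold and 2.01-fold. The 10 genes highest over EC1 were Kera, Slc24a3, Msr1, Dcaf12l2, Smagp, AW146154, Lamb3, Ccdc68, Shc2 and Plek, and 6 of them stayed below 10 CPM in both libraries. Lamb3, a laminin chain, had 7.93 CPM and 12.3 CPM in EC2 (2.71-fold and 2.60-fold over EC1).

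The genes lower in EC2 than in EC1 included osteogenic and dermal ones. Among the 10 lowest were Runx3, Lef1, Stmn2, Plxna4, Lrp4, Ism1, Kcns1, Tnn and Wif1. Lef1, the nuclear partner of beta-catenin, had 3 and 4 UMIs in EC2, 0.0304 times (E15.5) and 0.0979 times (E17.5) EC1. Runx3, a relative of Runx2, had 0.217 CPM (2 UMIs) and 1.76 CPM in EC2 against 3.90 and 20.2 CPM in EC1. Wif1 had 0.760 and 14.1 CPM against 28.0 and 106 CPM. Of the listed osteogenic genes 6 were also lower than in EC1, beside 2.23% of all genes. Among them were Sp7 with 0.186 and 0.109 times and Dlx5, a homeobox factor of osteoblasts, with 0.401 and 0.0936 times.

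Over EC3 the 10 highest genes were Krtdap, Inhbb, Ccdc68, Klhdc8a, Iyd, Msr1, Ripor2, Rab27b, Popdc3 and Cpa6. Krtdap was 4.11-fold and 4.95-fold higher, and Inhbb, an activin subunit, had 17.7 and 26.5 CPM and was 5.27-fold and 4.02-fold higher. Of 17 Wnt genes 1 was higher than in EC3, Wnt10b (2.56-fold and 2.35-fold), and 2 were lower, beside 0.458% and 1.04% of all genes. Of 17 TGF-beta and BMP genes 2 were higher, among them Bmp4 (2.56-fold and 2.23-fold), and 2 were lower, beside the same shares of all genes. The 10 lowest were Bmp5, Steap4, Spock2, Ntrk3, Ism1, Isg15, Wdr86, Ndnf, Ncald and Il1rapl1. Isg15, an interferon-induced protein, had 5.65 CPM and 3.65 CPM in EC2 against 31.5 and 18.8 CPM in EC3. Ntrk3, a neurotrophin receptor, had 2.71 and 0.377 CPM against 15.6 and 2.03 CPM.

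Between the libraries, EC2 differed at least 2-fold in every E17.5 suffix for 584 of 9083 genes. E17.5 was higher for 259 (2.85%) and lower for 325 (3.58%), with a median log2 ratio of 0.07 over all genes tested. Many of these differences were not particular to EC2: 66 of the 259 and 68 of the 325 were also at least 2-fold in the same direction in all 14 other clusters, and 164 and 262 in 7 or more. The 12 genes with the largest ratios were Hgs, Tnn, Srp54c, Fdx1l, Raver1, Igf2, Tnc, Fam177a, Tonsl, Sept2, Sp7 and AY036118. Srp54c had 12 UMIs at E15.5 and 1765 at E17.5 in EC2, and its ratio of 170 lay beside a median of 154 in the other clusters. The growth factor gene Igf2 had 47.3 CPM at E15.5 and 2183 CPM at E17.5 (46.1-fold) beside a median of 49.2-fold elsewhere. The matrices list 31053 and 27998 genes. The E15.5 header names Cell Ranger 3.1.0, not the version that the paper states, and no version was found in the E17.5 header. The part of gene list and counting version in such ratios was not tested.

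Tnn, Tnc and Sp7 are genes of bone and of periosteal matrix, and they started from few UMIs. Tnc, or tenascin C, had 12 UMIs at E15.5 (1.30 CPM) and 57.4 CPM at E17.5, 44.0-fold (95% limits 25 and 85.8) higher, beside a median of 7.89-fold in the other clusters. Tnn, or tenascin W, had 2 UMIs and 323 UMIs, a ratio of 187 (51.4 to 1552). Even so, EC2 was the lowest cluster for Tnc and for Sp7 in both libraries. The 12 with the smallest ratios were Fbxl7, Tfdp1, Ints6, Gnb5, Atrip, Atcayos, Olfr920, Eya4, Kctd17, Glra1, Gchfr and Fxyd4, and in the median other cluster Gchfr had a ratio of 0.214 and the other 11 had 0.0575 or less.

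Of 28 adventitial genes tested between the libraries, Efemp1 was higher at E17.5 and Has1 lower, which is near the 2.85% and 3.58% of all genes. The median log2 ratio of the list was 0.54, beside 0.07 over all genes. Ly6a was 1.62-fold, Pi16 1.64-fold and Dpt 1.5-fold higher, beside medians of 0.678, 0.874 and 0.439 in the other clusters. The rise was not particular to EC2 for Ly6a and Pi16. EC3 had 391 CPM of Ly6a at E15.5 and 1014 CPM at E17.5, and 243 and 783 CPM of Pi16. Dpt was lower in EC3 at E17.5 (519 and 316 CPM), and EC1 was lower for each of these markers. Mfap5 was 1.60-fold and Fbn1 1.45-fold higher, beside medians of 0.422 and 0.636. Dpp4 (0.918), Efhd1 (0.929) and Bmp7 (0.998) were nearly level. Has1 had 48.3 CPM at E15.5 and 13.1, 12.6 and 14.2 CPM in the suffixes (0.276 times), beside a median of 0.336 elsewhere.

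Some matrix genes were higher at E17.5. Eln, Efemp1 and Tnxb of 21 elastic fibre genes and Col1a1, Col3a1 and Col5a1 of 16 collagen genes were at least 2-fold higher in every suffix, beside 2.85% of all genes. The list medians were 0.67 and 0.54 on the log2 scale. Tnxb had 54.0 CPM at E15.5 and 298, 237 and 236 CPM in the suffixes (4.71-fold, beside 1.30-fold in the median other cluster). Col3a1 had 4136 CPM and then 11207, 9154 and 9412 CPM (2.38-fold, beside 1.22-fold). Col1a1 was 2.66-fold higher beside 2.12-fold elsewhere, so other clusters shared most of it. Thy1, a surface protein of fibroblasts, had 108 CPM and then 303, 257 and 261 CPM (2.52-fold, beside 1.15-fold). Col11a1 was lower (0.359 times, beside 0.807), with 151 CPM at E15.5 and 34.9, 68.2 and 56.8 CPM in the suffixes.

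**Figure D5:**
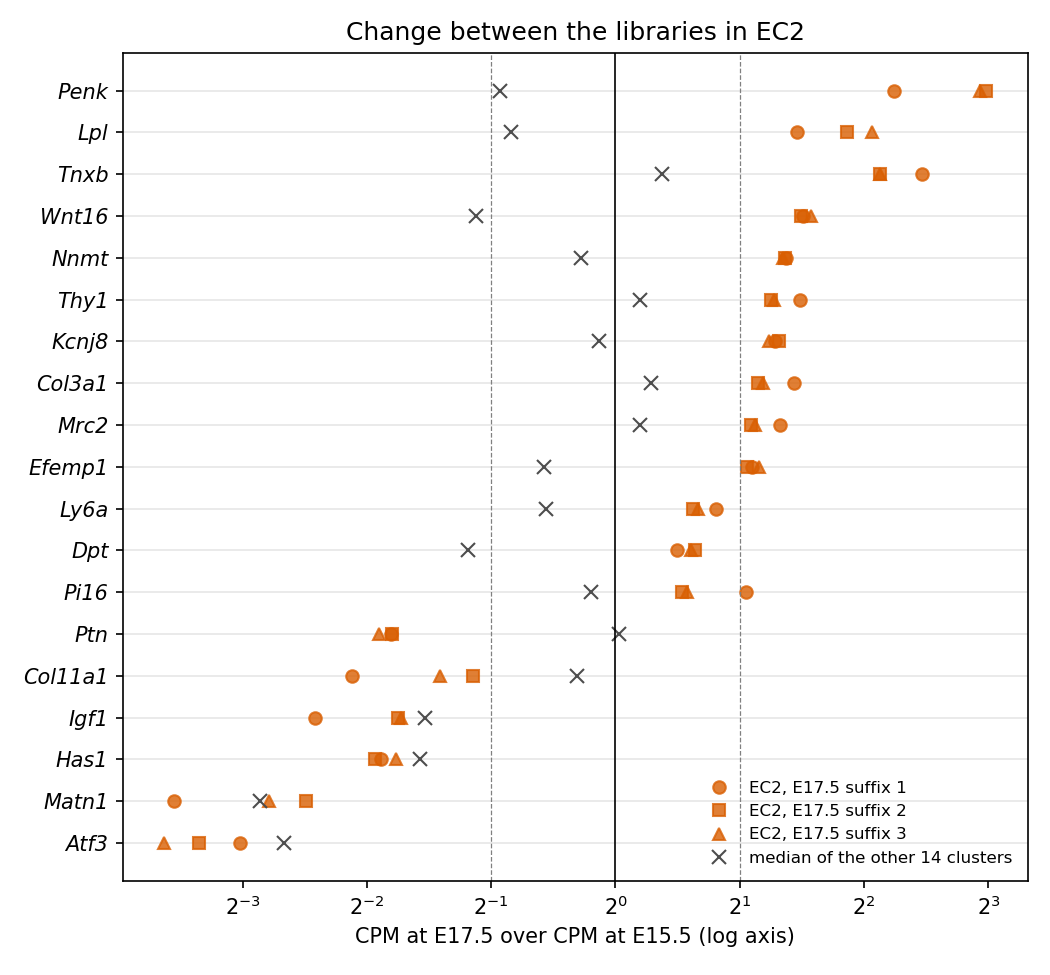
Ratio of the E17.5 to the E15.5 level in EC2 (log axis) for 19 genes, with 1 orange symbol per E17.5 barcode suffix and a cross for the median of the other 14 clusters. Dashed lines mark 2-fold, and the 3 suffixes lie on the same side of 1 for each gene. For several genes the cross lies on the other side of 1, among them Penk, Lpl, Wnt16, Dpt, Nnmt, Ly6a and Ptn (Penk 6.89-fold in EC2, 0.524 elsewhere).

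A smaller set changed in EC2 and in few other clusters. Of the 259 genes that were higher, 42 were 2-fold higher in at most 2 of the 14 other clusters, and of the 325 lower, 15 were. Many of the 42 were cell cycle genes, among them Birc5, Ccnb2, Cdc20 and Plk1. The genes named in this paragraph that belong to no list were chosen after their values were seen. Penk, which encodes proenkephalin, had 13.4 CPM at E15.5 and 63.2, 106 and 102 CPM in the suffixes, a 6.89-fold (5.69 to 8.42) difference, beside 0.524 in the median other cluster. EC2 moved from 14th to 2nd of 15 clusters for Penk. Lpl, or lipoprotein lipase, had 45.4 CPM and then 125, 165 and 190 CPM (3.59-fold, beside 0.559). Wnt16 had 10.4 CPM and then 29.6, 29.3 and 31.1 CPM (2.88-fold, beside 0.459). Nnmt, a nicotinamide methyltransferase, had 61.3 CPM and then 159, 158 and 156 CPM (2.57-fold, beside 0.825), and Mrc2, a collagen uptake receptor, was 2.26-fold higher (beside 1.15). Ptn, or pleiotrophin, showed the opposite course, with 3061 CPM at E15.5 and 874, 883 and 817 CPM in the suffixes (0.280 times, beside 1.02), and EC2 moved from 3rd to 14th.

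Of 15 cell cycle genes 3 were at least 2-fold higher in EC2 at E17.5 than at E15.5, beside 2.85% of all genes. None of the 15 passed the limit against the other cells in both libraries, and their summed level in EC2 was 583 CPM (11th of 15 clusters) and 987 CPM (6th). Ccnb1, a mitotic cyclin, had 17.2 CPM at E15.5 and 63.6, 55.3 and 50.7 CPM in the suffixes (3.26-fold, beside 1.04), and Birc5 and Cdc20 were 2.96-fold and 2.95-fold higher (beside 1.01 and 1.07). The phases that the authors called per cell put 4% of EC2 cells in G2M in the E15.5 library and 11.3% in the E17.5 library (16.2%, 9.35% and 9.50% in the suffixes), and 25.2% and 23.8% in S phase. The counts per cell from which these calls were made differed between the libraries, and their part was not tested.

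Genes that respond to tissue handling, and genes known from other cell types, differed between the libraries as well. Between the libraries 2.85% of all genes were higher at E17.5 and 3.58% lower. Of 15 immediate early and heat shock genes 11 were at least 2-fold lower at E17.5. Atf3 had 231 CPM at E15.5 and 22.8 CPM at E17.5 (0.0988 times, beside 0.157 in the median other cluster). Red blood cell genes summed to 10295 CPM in EC2 at E15.5 and 544 CPM at E17.5, within the range of the other clusters (8028 to 12501 and 492 to 818 CPM). All 8 cartilage genes were lower at E17.5, in sum 406 and 93.0 CPM (8 and 7 genes by symbol). Matn1 was 0.139 times beside 0.138 in the median other cluster, whereas Acan was 0.350 times beside 0.811. Of 7 myeloid markers 5 were higher at E17.5, and the other clusters ranged from 31.0 to 80.1 CPM at E15.5 and from 145 to 214 CPM at E17.5. The part of these differences in the other results was not tested.

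Variation between EC2 cells was measured for the more abundant genes only. Over 1247 genes with a mean of at least 0.3 UMIs in cells thinned to 3000 UMIs, the median Fano factor (variance over mean, which is 1 for counting noise and moves towards 1 with thinning) was 1.06 at E15.5 and 1.08 at E17.5. The 10 genes with the largest smaller value were Malat1, Meg3, Itm2a, Sparc, Col3a1, Fos, Dcn, Cdkn1c, Tmsb4x and Col1a1. The nuclear RNA Malat1 had 19.5 and 22.6, and the imprinted RNA Meg3 3.79 and 10.4. Matrix genes followed, with 3.18 and 5.13 for Sparc, 2.87 and 5.91 for Dcn and 2.59 and 4.44 for Col1a1. Fos had a Fano factor of 2.95 and 3.37 and was found in the smallest share of thinned EC2 cells among the 10, 83.2% and 49.5%. The markers Ly6a, Dpt and Pi16 were not among these 10.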

How the data were processed

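Droplet libraries (10x Genomics, 3′ chemistry) were made from 1 pool of coronal sutures at E15.5 and 3 batches at E17.5. The authors deposited UMI counts per gene and barcode, not normalized and before cell filters, aligned to mm10 with Cell Ranger (3.1.0 by the E15.5 header). The authors aggregated the E17.5 batches with default settings, and whether depth was equalized is not given in the sources used here. FastQC 0.11.7, MultiQC 0.9 and Seurat 3.2.0 are named in the submitters' processing notes. Cluster, library and cell cycle phase of each cell came from the table of the authors, made after cell filters, SCTransform and integration. Of 5340 cells listed for E15.5, 5 were missing from the matrix, none of them EC2.

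UMIs were summed over the cells of each cluster and library and scaled to CPM with Python 3.11.15, numpy 2.4.6, scipy 1.17.1 and pandas 2.3.3. Figures were drawn with matplotlib 3.10.9. A gene was tested between clusters with at least 100 UMIs over the labelled cells of each library, and was called at 2-fold in both libraries. Between stages it needed at least 100 UMIs over the EC2 cells of both libraries, presence in both gene lists by identifier, and 2-fold in all 3 suffixes. A count of 0 was set to a floor of 3 counts in calls and rankings, and no gene with 3 or fewer counts on both sides was called. No p-value was computed, since each stage is 1 library and cells are not replicates. Cells were thinned once with seed 1. Doublets were not removed, and at E15.5 2.38% of EC2 cells (3.29% at E17.5) reached the 94th percentile of the scores that Scrublet (scanpy 1.11.5) gave in their suffix. Fold, interval and thinning code was tested on simulated data. Positions are from GENCODE vM21 on GRCm38.

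The genes named are the markers, the 25 highest and 10 lowest against the other cells, the 10 highest and lowest against EC1 and EC3, the 12 largest rises and falls between stages, the 10 most variable, and members of 30 lists. Ribosomal, mitochondrial, haemoglobin and unnamed genes were counted but not named. A few results that the rule would name are not reported here. The cluster, lists and markers were chosen with earlier results of these data known. The alternatives were other references, denominators, gene filters, fold limits, depths, suffixes, scalings, means of single-cell CPM and cells of low doublet score. Each library alone and each suffix left out were added after seeing the data.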

Additional observations from a re-analysis of the deposited data

Results flagged for a closer look

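Between the libraries the ratio of Dpt and of Col14a1 was above 1 in EC2 and below 1 in every other cluster. The level of Dpt was 550 CPM at E15.5 and 825 CPM at E17.5 in EC2, a ratio of 1.5 (1.45 to 1.56) that lay between 1.41 and 1.55 in the 3 suffixes. In the other 14 clusters the ratio lay between 0.0830 and 0.621, and over their pooled cells it was 0.146. For Col14a1, a collagen that associates with fibrils, EC2 had 164 CPM and 238 CPM, a ratio of 1.45 (1.35 to 1.55) with 1.24 to 1.82 in the suffixes, while the other clusters lay between 0.295 and 0.985, the last of which is close to no change and was given no interval. The differences were not tested, since each stage is 1 library. Of the 30 adventitial fibroblast genes, 19 were higher in EC2 in every suffix while the pooled other cells were lower, but the pooled cells held a smaller share of EC1 and EC3 at E17.5, and only 2 of the 19 were lower in each of the 14 other clusters.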

How the results depend on the processing

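No paired analysis was possible because each stage is 1 library and the results come from no test. The share of EC2 was 11.4% at E15.5 and 6.94% at E17.5 of all cells within the limits, and 14%, 7.73% and 7.82% in the E17.5 suffixes. The 244 genes higher than in the other cells became 553 against the median of the other 14 clusters, 497 without EC1 and EC3, 468 with no filter beyond 1 UMI, 131 with at least 500 UMIs, 640 at 1.5-fold and 69 at 3-fold. The 527 lower became 225 with at least 500 UMIs, 953 at 1.5-fold and 292 at 3-fold. The requirement of both libraries limits each count: E15.5 alone gave 276 higher and 811 lower genes and E17.5 alone 891 and 868. Against EC1, 38 higher and 249 lower genes became 139 and 458 at E15.5 alone, 869 and 767 at E17.5 alone, 206 and 554 at 1.5-fold, and 58 higher genes with means of single-cell CPM. Against EC3, 51 and 116 became 135 and 264 at E15.5 alone, 588 and 559 at E17.5 alone, and 231 and 335 at 1.5-fold. Between stages, 259 higher and 325 lower genes became 496 and 568 with at least 20 UMIs, 102 and 122 with at least 500 UMIs and 752 and 724 at 1.5-fold, and 431 were higher in the pooled E17.5 cells. Leaving out 1 suffix gave 308 to 321 higher and 355 to 402 lower genes. EC2 cells with UMIs of all 3 markers were 87.0% and 99.2% without thinning, 24.9% and 52.3% at 1500 UMIs and 75.3% and 94.5% at 5000 UMIs, so the share follows the depth, and were 79.4% and 87.3% in suffixes 2 and 3. Bglap (1.01) and Ibsp (1.13) passed to the other side of 1 at E15.5 against the median cluster. The other 49 alternatives of these counts and shares stayed within 1.5-fold of the count or within the counting interval of the share. Of the alternatives for single named genes, 222 moved by more than the counting interval with the direction kept, 322 did not and 2 turned. The part of the enzyme, the sort and any change of counting version in differences between the libraries cannot be told apart from stage.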

Other observations

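Further genes that changed at least 2-fold between the libraries in EC2 and in at most 2 other clusters are given here, chosen after their values were seen and not as a group. Plk1, a mitotic kinase, had 6.51 CPM at E15.5 and 23.4 CPM at E17.5 (3.59-fold), beside 1.05 in the median other cluster. Cenpa, the centromeric histone, had 39.1 CPM and 118 CPM (3.03-fold, beside 1.06). Gnl3 and Nop58, which act in ribosome assembly, were lower, at 0.40 and 0.428 times, and the median other cluster was below 1 too (0.615 and 0.639).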
